A study of Rattus norvegicus with 6 samples.

Results

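The matrix metalloproteinases and their tissue inhibitors were followed in the rat jejunum on 1-colour Agilent arrays. The 10 genes examined were Mmp2, Mmp3, Mmp9, Mmp10, Mmp14, Mmp19 and Mmp28 and the inhibitors Timp1, Timp2 and Timp3, chosen by gene family, with earlier results of these data known. Every probe whose RefSeq accession belonged to these genes was used, which gave 11 of 41012 probes for 10 of the 13837 genes that could be named. Mmp19 had a pair of probes and the other 9 genes had 1 probe each. The control group had 3 arrays of male Sprague-Dawley rats of 6 weeks (200 ± 20 g) kept at 25°C. The S3d group had 3 arrays of rats of the same sex, strain, age and weight that were exposed to 35°C and a vibration of 0.1 g for 2 h per day on 3 days. Each sample was RNA of minced jejunum mixed from 3 rats, so the spread between arrays was a spread between pools and not between single animals. The labels give 10 rats per group. The paper gives fewer, too few for pools of separate animals, so whether the pools share rats is not settled and the arrays may not be independent. No label says how the pools were drawn, so the p-values measure only the spread between these samples.

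These enzymes are zinc-dependent proteases that cut collagens, laminins, proteoglycans and many cell-surface proteins, and they are made as inactive proforms. The tissue inhibitors (TIMPs) bind the active site of the enzymes and block them, and TIMP2 also serves as the bridge by which membrane-bound MMP14 activates proMMP2. In the intestine, stromal cells are the usual source of MMP2, MMP14 and the TIMPs, neutrophils store MMP9, and several members are known for the breakdown and repair of the mucosa.

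The promoters of the 2 stromelysins, Mmp3 and Mmp10, and of the inhibitors differ in type and are given here as background. Whether the promoter type has a part in the array values was not tested. RefSeq promoters (assembly GRCr8) were found for 6 of the 10 genes, namely Mmp3, Mmp10, Mmp28, Timp1, Timp2 and Timp3, and not for Mmp2, Mmp9, Mmp14 and Mmp19. The 250 bases before the start of Mmp3, Mmp10, Timp1 and Timp3 are given 5′ to 3′. Capitals mark the AP-1 motif TGANTCA, the TATA motif TATAAA and the GC box GGGCGG on either strand.
Mmp3 (GRCr8 chr8:12925031-12925280, plus strand): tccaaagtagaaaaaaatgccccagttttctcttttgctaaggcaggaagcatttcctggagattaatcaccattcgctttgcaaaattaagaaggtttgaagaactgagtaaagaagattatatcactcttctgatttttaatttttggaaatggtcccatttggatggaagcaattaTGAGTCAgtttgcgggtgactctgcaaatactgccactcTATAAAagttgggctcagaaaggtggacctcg
Mmp10 (GRCr8 chr8:12974457-12974706, plus strand): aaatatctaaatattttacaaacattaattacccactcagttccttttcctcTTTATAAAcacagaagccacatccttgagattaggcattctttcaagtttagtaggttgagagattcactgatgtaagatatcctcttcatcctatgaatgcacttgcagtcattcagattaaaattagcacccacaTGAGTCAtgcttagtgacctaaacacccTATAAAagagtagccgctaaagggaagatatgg
Timp1 (GRCr8 chrX:3771123-3771372, minus strand): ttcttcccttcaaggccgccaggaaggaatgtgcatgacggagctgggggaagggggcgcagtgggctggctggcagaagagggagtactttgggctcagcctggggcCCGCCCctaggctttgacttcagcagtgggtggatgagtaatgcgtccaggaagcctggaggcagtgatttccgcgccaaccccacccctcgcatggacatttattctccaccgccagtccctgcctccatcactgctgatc
Timp3 (GRCr8 chr7:19459559-19459808, minus strand): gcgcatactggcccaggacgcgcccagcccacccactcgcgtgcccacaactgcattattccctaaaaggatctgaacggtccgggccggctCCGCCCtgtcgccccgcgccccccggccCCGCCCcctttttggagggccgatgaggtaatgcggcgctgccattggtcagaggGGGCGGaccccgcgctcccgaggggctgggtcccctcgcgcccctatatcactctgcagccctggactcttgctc
The AP-1 motif stood at -71 in Mmp3 and at -61 in Mmp10, counted from the start of the transcript. This exact pattern was in none of the other 4 promoters, and variants of it were not searched for. A TATA motif stood at -32 in Mmp3 and at -33 in Mmp10, and Mmp10 had 2 more that overlapped each other at -198 and -196. The GC box occurred 4 times in Mmp28, 3 times in Timp3 and 1 time each in Timp1 and Timp2, and in neither stromelysin. The heat shock element core GAANNTTC was found in none of the 6. Of all 33469 rat promoters, 6.34% held the AP-1 motif, 12.9% the TATA motif, 30.5% the GC box and 7.23% the heat shock core in the same 250 bases. A match is a description of letters and not a measured binding site, and the letters of the array probes themselves were not used here.

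Before the values, 2 properties of the arrays have to be stated. The columns of the normalized table that the authors deposited followed the scanner files of the other group, with a rank correlation of 1 for the array of the same number in the other group and 0.942 to 0.952 for the array of the same label. No sample was reassigned. All values are named by the labels of the scanner files, and by its own labels the table gave the opposite sign for all 9 member genes that were tested, with 6 called higher and 1 lower (70.1% of all probes were called). The direction given here therefore opposes that of the study, both in its list of array genes, which names Mmp9, Mmp19 and Mmp28, and in its RT-PCR of other genes such as Lcn2. On the arrays Lcn2 was at -2.69 by the scanner labels and at 2.75 by the labels of the table. Which of these labels is right was not settled here, so every direction below holds for the scanner labels alone. The study chose those 3 genes on these samples, so their values here are not independent evidence of a direction. The arrays of each group also lay on 1 slide of their own, with 450 days between the scans of the slides, so slide, scan and group cannot be told apart. The 75th percentile of the signal was 415 to 430 on the control arrays and 1458 to 1558 on the S3d arrays. A level below is the log2 processed signal minus the log2 75th percentile of the same array, and a fold change is the mean level of the 3 arrays labelled S3d minus that of the 3 arrays labelled control.

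**Figure D1:**
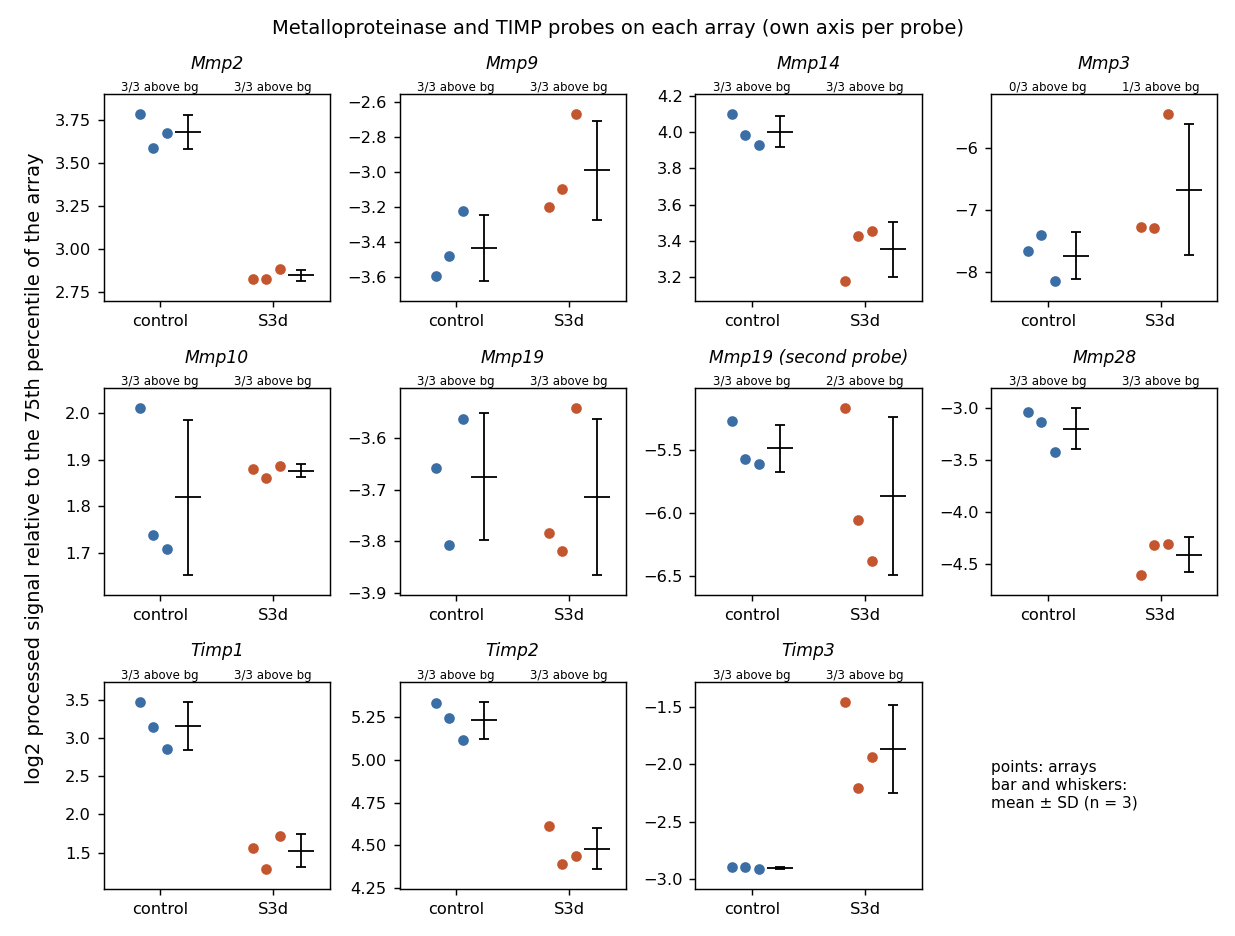
Levels of the 11 member probes on each array (log2 processed signal relative to the 75th percentile of the array, own axis per probe), with the mean ± SD of 3 arrays and the number of arrays well above background. Mmp2, Mmp14, Mmp28, Timp1 and Timp2 were lower and Timp3 and Mmp9 higher on all 3 arrays labelled S3d than on any control array.

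Timp1, Mmp28, Mmp2, Timp2 and Mmp14 were significantly decreased on the arrays labelled S3d compared with the control, and Timp3 was significantly increased. In all, 6 of the 9 member genes tested (66.7%) passed an adjusted p of 0.05 (limma with Benjamini-Hochberg adjustment over 31367 probes), beside 74.0% of all probes tested. The share of changed members was thus near that of the whole array, and no more than this can be read from the count. Of the members, 5 of 9 (55.6%) were lower, beside 34.5% of all probes, and 1 of 9 (11.1%) was higher, beside 39.5%. The groups did not overlap for 7 of 9 members, beside 78.9% of all probes. The median fold change of the 9 members was -0.65 on the log2 scale, and that of all probes tested was 0.08. These directions rest on the scaling. Without scaling between arrays 8 of the 9 members were called higher and 0 lower (0 at an unadjusted p of 0.05 too), with 96.0% of all probes called, and with normexp background correction limma called 0 of 9 in either direction (0 higher and 2 lower at an unadjusted p of 0.05, with 5.94% of all probes called).

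**Figure D2:**
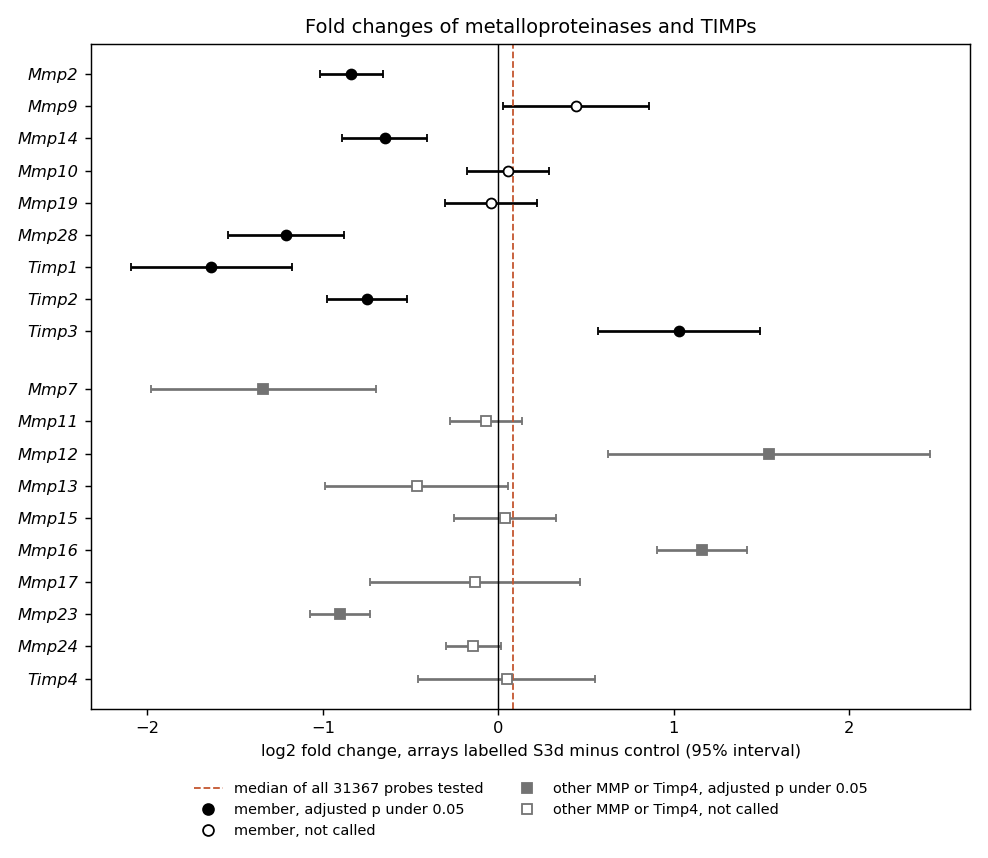
Log2 fold changes (arrays labelled S3d minus control) with 95% intervals for the 9 member genes tested (circles) and for 10 related genes (squares), filled where the adjusted p was under 0.05. The dashed line is the median of all probes tested, 0.08. Timp1 at -1.64 and Timp3 at 1.03 lie at the ends of the member range.

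Among the inhibitors, Timp1 is a secreted protein that blocks most soluble metalloproteinases and binds proMMP9. Its levels were 3.47, 3.14 and 2.85 on the control arrays and 1.56, 1.29 and 1.71 on the S3d arrays. Every S3d array lay below every control array by this scale. The mean fell from 3.16 ± 0.31 to 1.52 ± 0.22 (SD, n = 3), a log2 fold change of -1.64 ± 0.19 (SE), or 3.11-fold lower (adjusted p = 0.00041, limma). Before scaling, the same probe read 4605, 3776 and 3108 on the control arrays and 4311, 3797 and 5106 on the S3d arrays, so the groups overlapped. The decrease of Timp1 is thus a decrease against an array whose other signals were brighter, and the unscaled log2 fold change was 0.21 (adjusted p = 0.286).

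Timp2, which binds both proMMP2 and MMP14, had levels of 5.33, 5.24 and 5.12 in the control and 4.61, 4.39 and 4.44 in S3d. Its log2 fold change was -0.75 ± 0.09 (SE), or 1.68-fold lower (adjusted p = 0.000594, limma), with no overlap between the groups. Timp3 is the inhibitor that is held in the matrix and also blocks the ADAM and ADAMTS proteases. Its levels were -2.90, -2.89 and -2.91 in the control, the smallest spread of the 9 genes tested, and -1.46, -2.21 and -1.93 in S3d, the largest (brightest probe of each gene). Timp3 was thus higher on every S3d array, and its log2 fold change was 1.03 ± 0.19 (SE), or 2.05-fold higher (adjusted p = 0.00311, limma). With normexp background correction the value of Timp3 was -0.19 (adjusted p = 0.783). The 3 inhibitors did not move in one direction on these arrays.

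Mmp2 and Mmp14 belong with Timp2 to the cell-surface activation of proMMP2. Mmp2, the gelatinase that digests denatured collagen and type IV collagen, had levels of 3.79, 3.59 and 3.67 in the control and 2.82, 2.83 and 2.88 in S3d. The log2 fold change was -0.84 ± 0.07 (SE), or 1.79-fold lower, and it had the smallest adjusted p of the members (0.00014, limma). Mmp14, the membrane-bound activator, had levels of 4.10, 3.98 and 3.93 in the control and 3.18, 3.43 and 3.46 in S3d. Its log2 fold change was -0.65 ± 0.10 (SE), or 1.57-fold lower (adjusted p = 0.00147, limma). For both genes the groups did not overlap. Without scaling both signs turned, to 1.01 for Mmp2 and 1.20 for Mmp14, and with normexp they were -0.28 and -0.17 and were not called.

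Mmp9, the gelatinase stored in neutrophil granules, was dim on all arrays. Its levels were -3.60, -3.48 and -3.22 in the control and -3.20, -3.10 and -2.67 in S3d. The lowest S3d array stood just above the highest control array. The log2 fold change was 0.44 ± 0.17 (SE; 95% interval 0.03 to 0.86), with an adjusted p of 0.0542 (limma), so Mmp9 was not called. It passed the threshold without control replicate 3 (0.55, adjusted p = 0.0421) and without S3d replicate 1 (0.55, adjusted p = 0.0372), and it was 0.28 without S3d replicate 3 (adjusted p = 0.112). In limma it also passed with a block for the replicate number (adjusted p = 0.00967) and with an intensity trend (adjusted p = 0.0444). The filter for all 6 arrays gave an adjusted p of 0.0448 (limma). One-way analysis of variance did not call it (adjusted p = 0.112). The sign of Mmp9 turned with normexp background correction (-0.92, adjusted p = 0.238).

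The stromelysins cut a broad range of matrix proteins and activate other proenzymes. Mmp3 (stromelysin-1) was well above background on 0 of 3 control arrays and 1 of 3 S3d arrays and was not tested. Its signals were 2.05, 2.54 and 1.52 in the control and 9.49, 9.97 and 35.5 in S3d. The dimmest spots well above background read 6.48 to 8.91 on the control arrays and 16.8 to 22.7 on the S3d arrays, so S3d replicate 3 was the single array with a reading above that range, and no fold change was set. Mmp10 (stromelysin-2) was well above background on all 6 arrays. Its levels were 2.01, 1.74 and 1.71 in the control and 1.88, 1.86 and 1.89 in S3d, and the S3d arrays lay inside the control range. The log2 fold change was 0.06 ± 0.10 (SE; 95% interval -0.18 to 0.29; adjusted p = 0.612, limma), and median centring turned its sign to -0.15. The pair that shared the AP-1 and TATA motifs in the sequences above therefore gave a reading on all arrays for one gene and on 1 array for the other.

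Mmp28 (epilysin) is made by epithelial cells and carries a furin cleavage site before its catalytic part. Its levels were -3.04, -3.14 and -3.42 in the control and -4.61, -4.31 and -4.31 in S3d, without overlap. The log2 fold change was -1.21 ± 0.13 (SE), or 2.31-fold lower (adjusted p = 0.000369, limma). Relative to the median of all probes Mmp28 was at -1.56 to -1.27 under all 5 treatments of the scans. With normexp its own value was -1.93 and was not called (adjusted p = 0.0655), and without scaling it was 0.64. Mmp19, a secreted enzyme of vessels, macrophages and skin, had levels of -3.66, -3.81 and -3.56 in the control and -3.78, -3.82 and -3.54 in S3d. The groups overlapped, and the log2 fold change was -0.04 ± 0.11 (SE; 95% interval -0.30 to 0.22; adjusted p = 0.752, limma). Its dimmer probe gave -0.38 ± 0.31 (SE, adjusted p = 0.311) and was well above background on 2 of 3 S3d arrays. Quantile normalization called Mmp19 lower (-0.34, adjusted p = 0.0299), with 70.6% of all probes called.

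**Figure D3:**
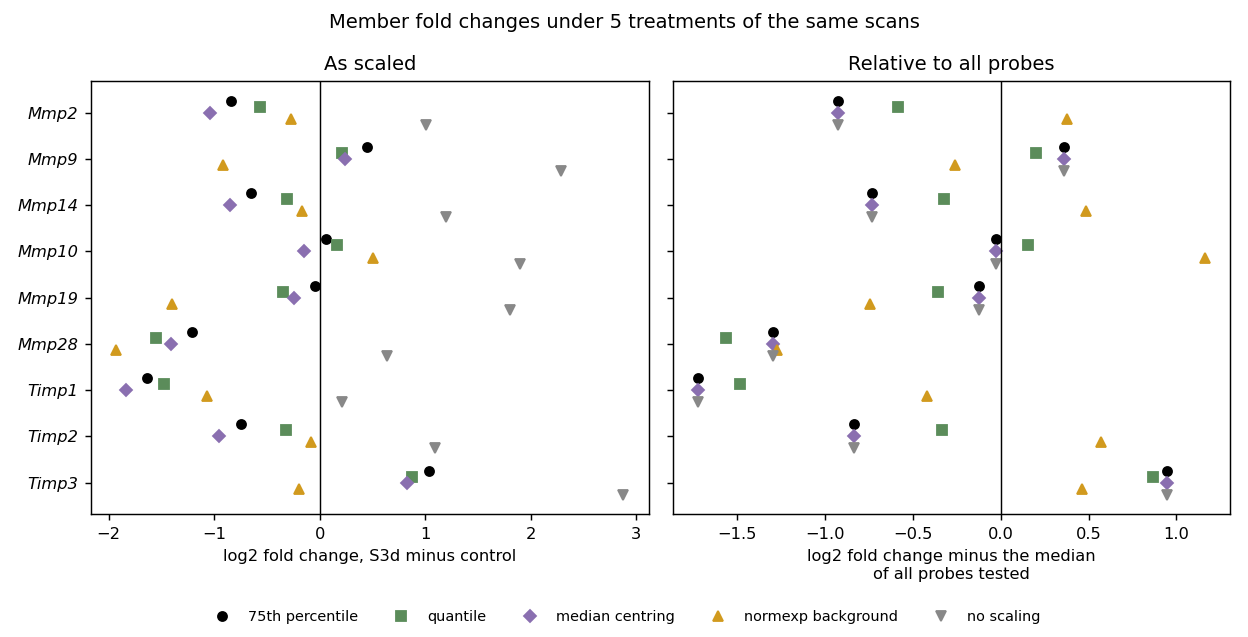
Log2 fold changes of the 9 member genes tested under 5 treatments of the same scanner files, as scaled (left) and after subtraction of the median of all probes tested (right). Timp1, Mmp28 and Mmp19 lay below and Timp3 above the median under all 5, while Mmp2, Mmp14 and Timp2 lay above it with normexp background correction.

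Because the arrays differed in overall brightness, the members were also read against that brightness. The median of all probes tested was 0.08 with the 75th percentile, 0.01 with quantile normalization, -0.12 with median centring, 1.93 without scaling and -0.66 with normexp. Relative to this median Timp1 was at -1.72 to -0.42, Mmp19 at -0.74 to -0.12 and Timp3 at 0.46 to 0.95 over these 5 treatments. Mmp2 was at -0.92 to 0.38, Mmp14 at -0.73 to 0.49 and Timp2 at -0.83 to 0.57, and for these 3 the positive value was that of normexp. Mmp10 was at -0.03 to 1.16 and Mmp9 at -0.26 to 0.36.

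The probes of Mmp2, Mmp9 and Timp1 are each printed 10 times on an array, which gives the error of a single spot beside the spread between arrays. Within an array the spots varied by 3.08 to 5.14% (CV) for Mmp2, 2.96 to 4.32% for Timp1 and 3.36 to 13.9% for Mmp9. On the log2 scale the spot SD of Timp1 was 0.04 to 0.06, against 0.31 between the control arrays and 0.22 between the S3d arrays. For Mmp2 the spot SD was 0.04 to 0.07, and the SD between arrays was 0.10 in the control and 0.03 in S3d. For Mmp9 the spot SD reached 0.19, and 3 of its 60 spots were outliers by the scanner's flags and were left out.

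**Figure D4:**
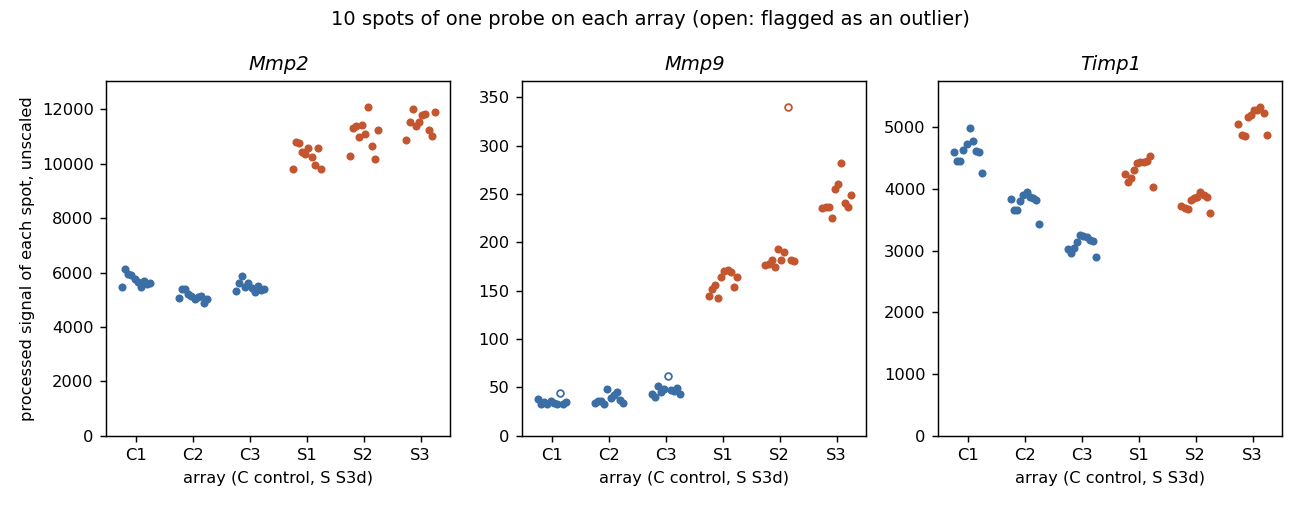
Unscaled processed signal of the 10 spots of the Mmp2, Mmp9 and Timp1 probes on each array, on linear axes from 0, with open points for spots that carried an outlier flag. Before scaling, the Mmp2 spots of the arrays labelled S3d stand above those of the control, opposite to the decrease after scaling. Those of Timp1 overlap between the groups before scaling.

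Differences between 2 probes on the same array do not depend on a constant subtracted from that array, as in the 75th percentile, median and unscaled values, but they do depend on quantile normalization and on the background correction. The size of such a gap has no meaning of its own, but its change from control to S3d shows whether both genes moved equally. For Mmp2, Mmp14 and Timp2 the gaps overlapped between the groups. The gap of Mmp2 to Timp2 changed by -0.09 (-0.35 to 0.10 over all pairs of arrays, exact permutation p = 0.40), that of Mmp14 to Timp2 by 0.10 (-0.25 to 0.30, exact permutation p = 0.40) and that of Mmp2 to Mmp14 by -0.19 (-0.35 to 0.04, exact permutation p = 0.20). A difference between these 3 genes was thus not detectable with 3 arrays per group, which does not show that they moved alike. With quantile normalization the 3 changes were -0.25, 0.01 and -0.26, and with normexp -0.19, -0.08 and -0.11.

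Timp1, which had the lowest fold change of the members, was set against each of the other 8 genes tested. Because Timp1 was picked for this, every change against it is positive by construction with the scaling used for the fold changes. Those signs are therefore not a further result, and only the sizes of the changes are described. The gap of Timp2 to Timp1 was 2.07 ± 0.20 in the control and 2.96 ± 0.20 in S3d (SD, n = 3), a change of 0.89. The gap of Mmp10 to Timp1 was -1.46, -1.41 and -1.15 on the control arrays and 0.32, 0.57 and 0.17 on the S3d arrays, a change of 1.69. The changes against Timp1 were 0.80 for Mmp2, 0.99 for Mmp14, 2.67 for Timp3, 2.08 for Mmp9, 1.60 for Mmp19 and 0.43 for Mmp28, and Timp3 changed by 1.78 against Timp2. In these 9 pairs the groups did not overlap, with an exact permutation p of 0.10. This is the smallest p that 3 against 3 arrays can give. It was 0.133 after adjustment over the 12 pairs examined, so no pair could pass. The pairs were picked on these same values, so no conclusion is drawn from the p-values or the lack of overlap. For the brighter genes the values against Timp1 stayed positive with the other corrections. With quantile normalization they were 1.15 for Timp2, 1.64 for Mmp10, 0.90 for Mmp2 and 1.16 for Mmp14, and with normexp 0.99, 1.58, 0.80 and 0.90. For the dim genes they were less stable, with 2.35 for Timp3, 1.68 for Mmp9, 1.13 for Mmp19 and -0.08 for Mmp28 with quantile normalization, and 0.88, 0.16, -0.33 and -0.85 with normexp. Timp3 against Timp2 changed by 1.20 with quantile normalization and -0.11 with normexp. All of these signs are those of the scanner labels.

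**Figure D5:**
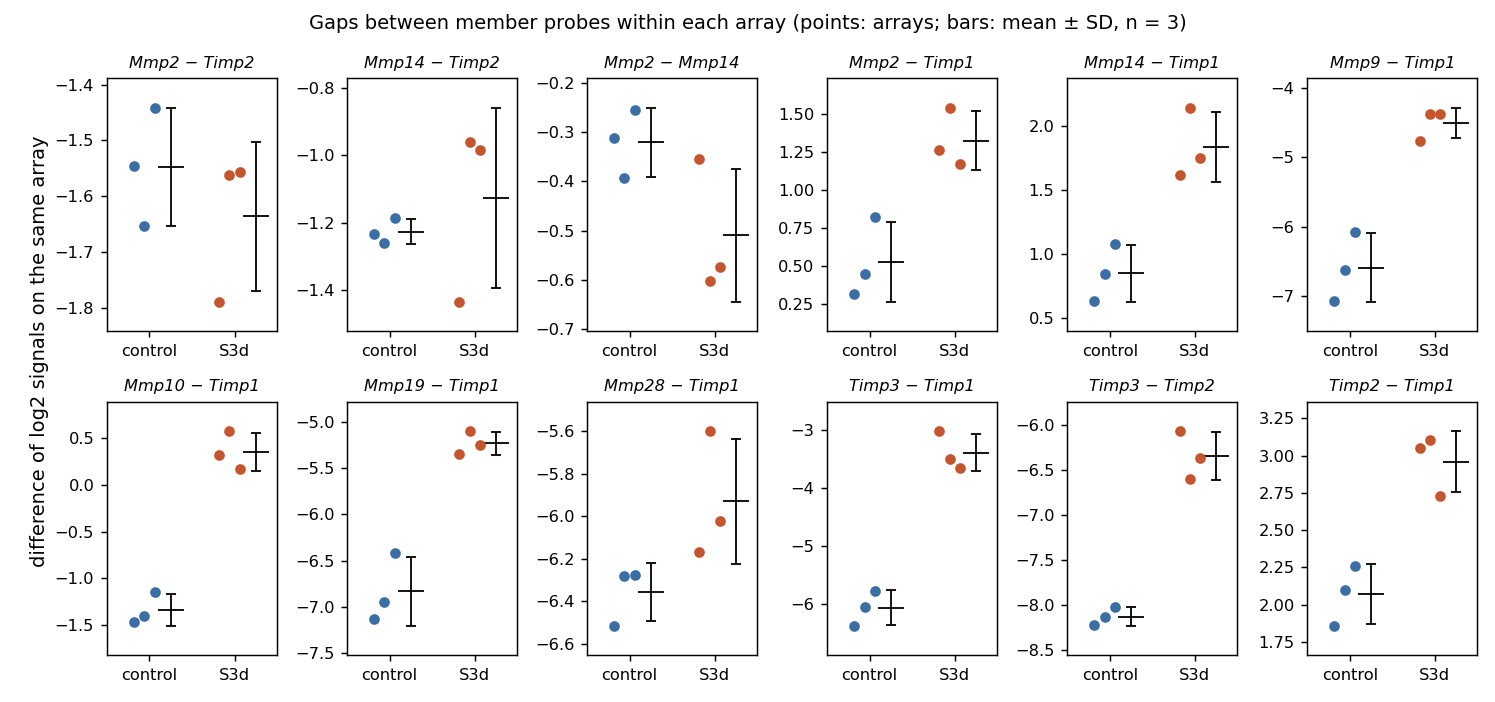
Differences between the log2 signals of 2 member probes on the same array for 12 pairs, with the mean ± SD of 3 arrays per group. The pairs among Mmp2, Mmp14 and Timp2 overlap between the groups, and the 9 other pairs do not.

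Of the other metalloproteinases and Timp4, 15 of 17 genes had a probe and 10 were tested, of which 2 were higher and 2 lower (40.0% called, beside 74.0% of all probes), with a median of -0.10. With quantile normalization 2 were higher and 6 lower, and the deposited table by its labels had 6 higher and 2 lower. Macrophage elastase Mmp12 (1.55 ± 0.37, SE) and membrane-bound Mmp16 (1.16 ± 0.10) were higher, with signs that turned with normexp. Matrilysin Mmp7, an epithelial enzyme that processes antimicrobial peptides (-1.34 ± 0.26), and Mmp23 (-0.90 ± 0.07) were lower, with signs that turned without scaling. The study listed Mmp7 on these samples too. Mmp3, Mmp10 and Mmp7 lie in a run of 10 metalloproteinase genes on rat chromosome 8 in the order Mmp13, Mmp12, Mmp1b, Mmp3, Mmp1, Mmp10, Mmp8, Mmp27, Mmp20 and Mmp7. A probe was found for 9 of them, 4 were tested, and Mmp1, Mmp8 and Mmp20 were not well above background on any array. Of the 4 tested in this run, Mmp12 was higher, Mmp7 was lower, and Mmp13 (-0.46, adjusted p = 0.0916) and Mmp10 were not called.

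The counts of the gene lists below depend on the scaling too. Without scaling, 9 of 10 activators, 6 of 8 restraining genes, 7 of 7 ADAM proteases, 19 of 19 substrates and 18 of 18 regulators were called higher, and normexp called 5 genes of these lists. By the labels of the deposited table, 4 activators were higher and 3 lower, 5 restraining genes were higher and 2 lower, 2 ADAM proteases were higher and 4 lower, 5 substrates were higher and 7 lower, and 6 regulators were higher and 6 lower. In the values below 80.0% of the activators, 87.5% of the restraining genes, 100% of the ADAM proteases, 78.9% of the substrates and 55.6% of the regulators were called, beside 74.0% of all probes. Of the genes listed as activators of this family, 10 were tested, of which 3 were higher and 5 lower. Not all of these are proteases, since the receptor Plaur is among them. Furin is the convertase that removes the propeptides of MMP14 and MMP28. It had the largest decrease of the genes named from these lists, at -2.07 ± 0.09 (SE, adjusted p = 1.59e-05, limma). It was called lower with normexp as well (-1.69, adjusted p = 0.0328). Without scaling Furin was at -0.22 (adjusted p = 0.0794). The urokinase receptor Plaur was at -1.10 ± 0.17 and turned positive without scaling. The tissue plasminogen activator Plat (1.23 ± 0.09, with its sign turned with normexp) and the convertase Pcsk6 (0.70 ± 0.08) were higher. Of 8 genes that restrain these proteases, 2 were higher and 5 lower. Thbs2, which clears MMP2 from the cell surroundings, was at -0.91 ± 0.12 and the broad trap A2m at -0.43 ± 0.09, both positive without scaling. Averaged over its probes, Thbs2 was at -0.54 ± 0.13. Serpina1 (0.83 ± 0.10) and Serpine2 (0.37 ± 0.06) were higher, both with signs that turned with normexp, and the dimmer Serpine2 probe gave -0.79 ± 0.37 (not called).

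Of 7 ADAM and ADAMTS proteases tested, relatives that TIMP3 blocks in part, 4 were higher and 3 lower. Adamts5, an aggrecanase, was at 1.02 ± 0.17 (SE) and turned negative with normexp. Adam19 (-0.995 ± 0.09) and Adam15 (-0.76 ± 0.10) were lower and turned positive without scaling, and the second Adam19 probe gave 0.04 ± 0.11. The brighter probe of Adam9 was at 1.13 ± 0.10 and its dimmer probe at -1.40 ± 0.06, both called, so Adam9 has no settled direction. Of 19 matrix substrates tested, 9 were higher and 6 lower. Fibrillin Fbn1 (1.38 ± 0.07) and the small proteoglycan Lum (1.07 ± 0.07) were higher, with positive values under all 5 treatments of the scans, while the second Fbn1 probe gave 0.10 ± 0.13. Agrin Agrn (-1.07 ± 0.06) and biglycan Bgn (-0.83 ± 0.09) were lower and turned positive without scaling. Lama5 and Tnc each had probes called in both directions.

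Of 18 cytokines and transcription factors that are known to regulate these genes, 5 were higher and 5 lower. The growth factors Tgfb3 (1.76 ± 0.13, SE) and Tgfa (1.34 ± 0.06) were higher, with positive values under all 5 treatments of the scans. The AP-1 subunits Jund (-1.29 ± 0.09) and Jun (-1.06 ± 0.08) were lower, and both turned positive without scaling. Other AP-1 subunits differed, with Fosl1 higher (1.17 ± 0.23), Fosl2 lower (-0.48 ± 0.07) and Fos not called (-0.09 ± 0.08). AP-1 dimers bind the motif printed above for Mmp3 and Mmp10, and a part of these subunits in the values of those genes was not tested. No direction is given for Sp1, whose probes were called both ways.

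Markers of the cell types in the tissue moved with the groups as well. In whole tissue, fewer cells of a type and less RNA per cell cannot be told apart. Of 12 enterocyte markers tested, 9 were lower (beside 34.5% of all probes) and 1 higher, with a median of -1.03, while with quantile normalization 2 were lower and 4 higher. The summed level of the list, in multiples of the 75th percentile, was 4179 to 4600 in the control and 1865 to 1895 in S3d. Without scaling 11 of these 12 were called higher, and with normexp limma called 0 (1 higher and 0 lower at an unadjusted p of 0.05). All 12 were well above background on every array, in keeping with the labelled tissue. For fibroblasts, 5 of 11 markers were higher and 3 lower, and the sum was 151 to 165 in the control and 162 to 177 in S3d. Col1a1 and Col1a2 each had probes called in both directions. The brighter Col1a1 probe, which counts in that sum, was at 1.52 and the dimmer at -1.23. For smooth muscle, 2 of 7 were higher and 3 lower, with sums of 130 to 155 and 117 to 138. For macrophages, 2 of 9 were higher and 3 lower, with sums of 70.6 to 72.5 and 63.9 to 68.1. For endothelial cells, 2 of 7 were higher and 3 lower, with sums of 7.22 to 8.78 and 8.84 to 9.09. Myh11 and Smtn of smooth muscle, Mrc1 of macrophages and Flt1 of endothelial cells also had probes called both ways. For neutrophils, the store of MMP9, 3 of 6 were higher and 3 lower, with sums of 1.70 to 2.87 and 0.41 to 0.52. Only 2 of the neutrophil markers were well above background on all 6 arrays. Mpo had no probe, S100a8 and Elane were not well above background on any control array, and Csf3r was so on 1 of 3. Elane and Csf3r, both called higher, entered the test through the S3d arrays alone. The split into higher and lower is therefore not a result about neutrophils. Without scaling all tested markers of the fibroblast, smooth muscle, macrophage and endothelial lists were called higher, and 3 neutrophil markers were called higher and 2 lower. With quantile normalization 7 fibroblast markers were called higher and 1 lower, and the smooth muscle, macrophage, neutrophil and endothelial lists each had 3 higher and 3 lower. By its own labels the deposited table called 2 enterocyte markers higher and 4 lower, 1 fibroblast marker higher and 7 lower, and 3 higher and 3 lower in each of the other 4 lists. The part of these cell types in the values of the metalloproteinases and inhibitors was not tested.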

How the data were processed

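Jejunal RNA of 3 control and 3 S3d samples was measured on 1-colour Agilent rat arrays. The authors deposited the scanner output of Agilent Feature Extraction 10.7.3.1, whose intensity values (processed signals) already had the background removed and had not been scaled across arrays, and 1 table of log2 values. The sorted columns of that table differed by at most 0.0025, so its values had been quantile-normalized. How the table was made is not given in the sources used here. The microarray design refers to the rat build rn4, and no coordinates of it were used.

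Control spots and spots flagged as outliers were dropped, and the log2 values of repeated spots were averaged. The log2 75th percentile of each array was subtracted, without a pseudocount. A probe was tested if the scanner marked it well above background on each of the 3 arrays of either group, and 9645 of 41012 probes were not tested. The test was limma 3.58.1 (R 4.3.3; lmFit and eBayes, two-sided, no block) with Benjamini-Hochberg adjustment over every probe tested. The comparison was tested on simulated data with 200 changed probes of 31137. It recovered 60% of changes of 1 on the log2 scale and made 9 false calls. The simulated data held no slide effect and a far smaller share of changed probes than was called here. These rates therefore do not describe the test on the real arrays. Gaps between probes were tested with exact permutation tests in scipy 1.17.1. The number of arrays limits the precision.

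Probes were named through RefSeq accessions and the table of the assembly GRCr8, which named 17512 probes. Where a gene has several probes, the brightest stands for it. All members are named. Of each list of activators, restraining genes, ADAM proteases, substrates, inducers and other metalloproteinases, the 2 largest rises and 2 largest falls are named among genes that were called, lay above background on each of the 6 arrays and did not overlap between groups. The members, the lists and the cell type markers were chosen with earlier results of these data known. The pairs of probes, Sp1, Lama5, Tnc, Mpo, S100a8, Elane, Csf3r, Col1a1, Col1a2, Myh11, Smtn, Mrc1, Flt1, Fos, Fosl1 and Fosl2 were picked after their values were seen. Apart from the members, genes picked in this way are not counted among the named genes below.

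Alternatives were scaling by quantiles, by the median or not at all, normexp background correction with an offset of 50 on the median signals (the scanner files hold no mean signal), 2 other filters on dim probes, flagged spots included, the deposited table, a block for the replicate number, eBayes with an intensity trend, a one-way analysis of variance per probe as in the methods, averaging the probes of a gene, a fold change of at least 1.5, and each array left out. The value relative to the median of all probes was added after the data were seen. No fit with a slide block could be made, because each slide holds 1 group.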

Additional observations from a re-analysis of the deposited data

How the results depend on the processing

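Over all probes, 23202 were called, and 21443 to 22813 when 1 array was left out. The count was 1864 with normexp background correction and stayed within 1.5 times under the other alternatives. The 5 member genes called lower stayed 5 when each array was left out, and were 0 without scaling, 0 with normexp and 1 by the labels of the deposited table. The count of members called higher was 1, and 1 to 2 when 1 array was left out. It was 8 without scaling, 0 with normexp, 6 by the labels of the deposited table, and 2 (Timp3 and Mmp9) with an intensity trend, with the filter for all 6 arrays and with the replicate block. The replicate numbers of the 2 groups share no common deviation (correlations of 0.02, 0.02 and -0.05 for the same number), so the samples share only a number, and the replicate block called 22211 probes. Not every sample correlated best with its own number. Median centring moved the share of higher among called probes from 53.4% to 42.8%, no scaling moved it to 98.1% and normexp to 30.7%.

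By the labels of the deposited table, the log2 fold changes of all named genes had the opposite sign, at 0.57 for Mmp2, -0.20 for Mmp9, -0.17 for Mmp10, 0.31 for Mmp14, 0.35 for Mmp19, 1.56 for Mmp28, 1.47 for Timp1, 0.31 for Timp2, -0.87 for Timp3, -1.31 for Mmp12, -1.02 for Mmp16, 1.15 for Mmp7, 0.89 for Mmp23, -1.07 for Plat, -0.88 for Pcsk6, 2.00 for Furin, 1.15 for Plaur, -0.70 for Serpina1, -0.23 for Serpine2, 1.03 for Thbs2, 0.43 for A2m, -1.07 for Adam9, -0.74 for Adamts5, 1.23 for Adam19, 0.41 for Adam15, -1.56 for Fbn1, -1.09 for Lum, 0.86 for Agrn, 0.42 for Bgn, -1.70 for Tgfb3, -1.40 for Tgfa, 0.86 for Jund and 0.77 for Jun. Without scaling the signs turned, to 1.01 for Mmp2, 1.20 for Mmp14, 1.81 for Mmp19, 0.64 for Mmp28, 0.21 for Timp1, 1.10 for Timp2, 0.51 for Mmp7, 0.94 for Mmp23, 0.74 for Plaur, 0.94 for Thbs2, 1.42 for A2m, 0.85 for Adam19, 1.09 for Adam15, 0.78 for Agrn, 1.01 for Bgn, 0.55 for Jund and 0.78 for Jun. With normexp they turned, to -0.92 for Mmp9, -0.19 for Timp3, -0.12 for Mmp12, -0.081 for Mmp16, -0.053 for Plat, -0.27 for Serpina1, -0.53 for Serpine2 and -0.67 for Adamts5. Averaging the probes of a gene turned the sign, to -0.21 for Serpine2 and -0.14 for Adam9, and median centring turned it to -0.15 for Mmp10. Mmp19 was 0.017 without control replicate 3 and 0.012 without S3d replicate 2, and -0.13 to 0.02 when each array was left out. The causes were not tested, apart from the construction of the unscaled values, which keep the difference in brightness between the slides. Mmp3, well above background on 1 of 6 arrays, could not be tested.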
